A study of Mus musculus with 3 samples.

Results

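The mitotic cells of days 4 and 7 were cells of an in vitro Leydig differentiation culture that carried transcripts of 8 genes of late G2 and mitosis. A cell was counted as mitotic when the unique molecular identifiers (UMIs, tags that mark single captured transcripts) of Cenpf, Ube2c, Cdc20, Ccnb1, Cenpa, Cenpe, Hmmr and Plk1 summed to at least 4 and to at least 10 per 10000 UMIs of the cell. Of the 5151 cells of both days, 598 met this rule, 351 of 2980 on day 4 and 247 of 2171 on day 7. The whole series held 6124 cells. Reference cells were cells of the same day with none of the 8 transcripts and no UMI of Mki67 or Top2a, and numbered 2085 on day 4 and 1465 on day 7. Both groups were chosen by measured transcripts, so every difference between mitotic and reference cells below is a description and not a test.

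The cells came from testes of C57BL/6 males of 8 to 12 weeks and were sorted as Sca1+/cKit-, the gate for the interstitial progenitor population. They were plated at 100000 cells per well, recovered for 18 h in serum, and expanded for 3 days with PdgfAA, PdgfBB and Fgf2 at 10 ng/ml each and the hedgehog agonist SAG at 0.5 uM. The day 4 cells stood at the end of this expansion. The day 7 cells had further received differentiation medium, which keeps all these factors and adds 5 mM LiCl2 and 10 uM DAPT, a gamma-secretase inhibitor that blocks Notch signalling. Each day was 1 Drop-seq library, so there is no replicate check, and a difference between days cannot be told apart from a difference between libraries. All intervals are 95% intervals that cover counting error only.

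In G2, cyclin-dependent kinase 1 (Cdk1) bound to cyclin A2 or a B-type cyclin drives the cell into mitosis, where Aurora and Polo-like kinases build the spindle, condensins compact the chromosomes and kinetochores attach them to microtubules. The spindle checkpoint holds the anaphase-promoting complex (APC/C) until all chromosomes are attached, and the APC/C with its activator Cdc20 and its ubiquitin-conjugating enzyme Ube2c then destroys securin and the B-type cyclins. Many of these genes are transcribed late in the cycle through a promoter element known as CHR (cell cycle genes homology region), often with CCAAT boxes bound by NF-Y, while genes of the G1/S transition carry E2F sites. In the adult testis interstitium cells rarely divide, and Leydig cells, which make androgens, arise from stromal progenitors that do not make steroids.

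The promoters of 4 of the 8 selecting genes are shown because each holds both elements near its start, and that of Hells, a chromatin remodeller of S phase, is shown as a gene of the replication list without them. Each line runs 5′ to 3′ on the strand of the gene from 150 bases before to 15 bases after the annotated start, with sequence from RefSeq for GRCm38.p6. The stretches are chr2:164769779-164769943 (plus strand) for Ube2c, chr4:118437329-118437493 (minus) for Cdc20, chr1:189688072-189688236 (minus) for Cenpf, chr11:40733423-40733587 (minus) for Hmmr and chr19:38930840-38931004 (plus) for Hells. Capitals mark CHR matches (TTTGAA, or TTCAAA where the match lies on the other strand) and CCAAT boxes (CCAAT or ATTGG), and in Hells an E2F-type match (TTTCCCGC).
Ube2c: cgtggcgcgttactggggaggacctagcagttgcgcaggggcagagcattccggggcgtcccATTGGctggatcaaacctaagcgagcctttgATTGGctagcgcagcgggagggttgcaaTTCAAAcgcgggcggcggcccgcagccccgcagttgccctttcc
Cdc20: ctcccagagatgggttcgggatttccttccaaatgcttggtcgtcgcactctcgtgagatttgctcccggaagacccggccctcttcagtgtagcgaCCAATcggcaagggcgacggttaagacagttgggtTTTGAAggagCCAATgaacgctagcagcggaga
Cenpf: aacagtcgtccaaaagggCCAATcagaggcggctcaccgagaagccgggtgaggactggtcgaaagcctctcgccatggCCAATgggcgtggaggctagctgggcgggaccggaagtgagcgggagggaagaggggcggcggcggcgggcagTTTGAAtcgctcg
Hmmr: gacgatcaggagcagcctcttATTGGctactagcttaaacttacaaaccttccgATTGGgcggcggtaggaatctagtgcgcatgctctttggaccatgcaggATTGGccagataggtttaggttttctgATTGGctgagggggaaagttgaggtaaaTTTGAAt
Hells: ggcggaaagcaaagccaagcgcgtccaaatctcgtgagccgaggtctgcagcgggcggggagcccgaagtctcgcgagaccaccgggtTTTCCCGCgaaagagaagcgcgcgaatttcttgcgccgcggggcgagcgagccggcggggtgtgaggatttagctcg

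Over windows of 300 bases around annotated starts, TTTGAA on either strand was present in 6 of the 8 selecting genes, with Ccnb1 and Cenpe as the exceptions, and CCAAT was present in all 8. The mitosis genes that took no part in the selection carried the same letters: TTTGAA lay in 42 of their 68 windows (61.8%), against 17.9% of all 32851 windows. Genes of DNA replication differed in this element, with TTTGAA in 4 of 43 windows (9.30%). CCAAT did not separate these lists, at 58.8% of mitosis windows and 60.5% of replication windows, against 37.4% of all. Both letters together lay in 45.6% of mitosis windows, 6.98% of replication windows and 6.95% of all windows. The E2F-type letters TTTCCCGC had the opposite distribution, with 16.3% of replication windows, 4.41% of mitosis windows and 1.07% of all. The related TTTGGCGC lay in 11.6%, 5.88% and 0.514% of these windows in the same order, and TTCGAA, a variant of CHR, in 4.65%, 10.3% and 1.56%. Matrix genes held TTTGAA in 4 of 20 windows and contractile genes in 2 of 25. Letters were searched on both strands, CCAAT and TTTGAA can share 1 end base, and the E2F-type letters can overlap each other at their ends. RefSeq windows were matched for 62 of 75 mitosis genes and 38 of 48 replication genes, and a match of letters is a description, not a bound site.

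**Figure D1:**
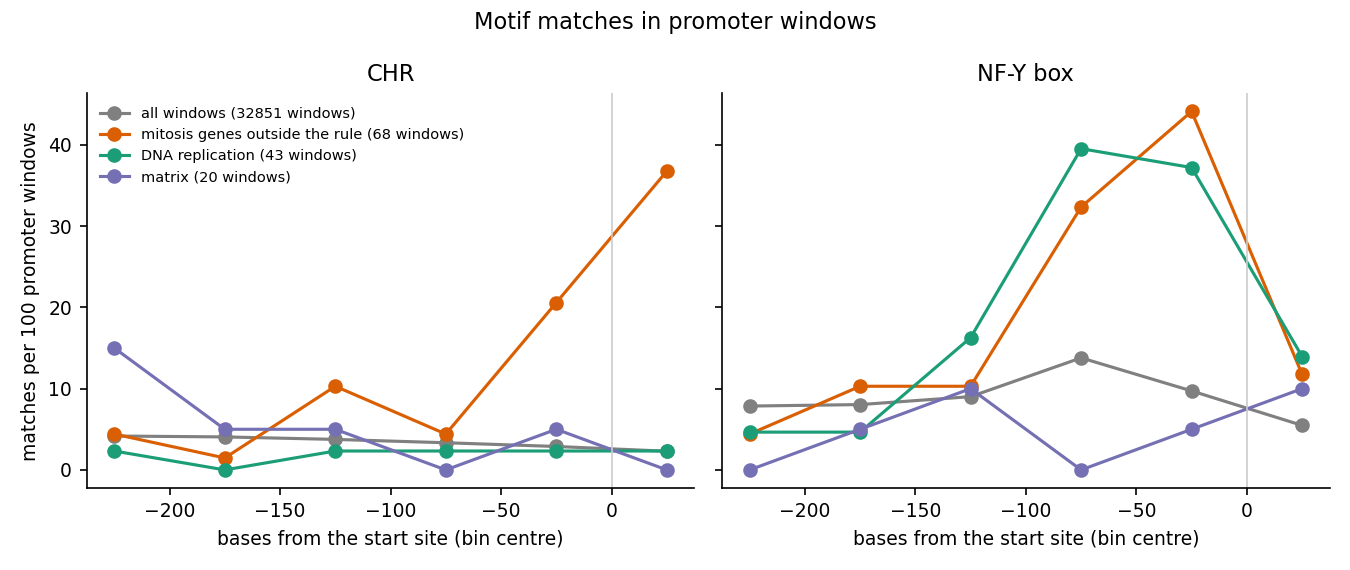
Matches of the CHR letters (left) and the NF-Y box (right) per 100 promoter windows (y axis) in bins of 50 bases, by distance of the bin centre from the annotated start (x axis, bases), for all windows and for 3 gene lists. In mitosis genes outside the selection the CHR matches gather at the start, with 20.6 per 100 windows in the 50 bases before it and 36.8 in the 50 bases after it, against 2.88 and 2.30 in all windows. CCAAT matches peak before the start in both mitosis and replication genes.

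Depth and barcodes bear on all values that follow. Cells held 607 to 33912 UMIs on day 4 and 594 to 52660 on day 7, with medians of 2887 and 3285. Mitotic cells were deeper than reference cells, with a median of 4236 against 2525 UMIs on day 4 (a ratio of 1.68) and 4808 against 2679 on day 7 (1.79), and a rule that asks for 4 UMIs selects deeper cells. No barcode was shared between libraries. Within the day 4 library, however, 1304 of the columns (43.8%) shared the first 11 of their 12 barcode bases with another column, and 1026 columns (47.3%) did so on day 7, mostly in sets of 4. The sets were alike in class: on day 4 only 48 of 351 sets held any mitotic column, and 35 of these 48 held at least 2. On day 7 the numbers were 40 of 269 sets and 32 of 40. Such columns may not be separate cells, so the shares, the depth ratios and the medians of 5 gene lists are also given with the columns of a set summed and with all such columns left out.

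The share of mitotic cells was close on the 2 days. It was 11.8% (interval 10.6–13.0%) on day 4 and 11.4% (10.1–12.8%) on day 7. With the columns of a barcode set summed, it was 13.5% (12.1–15.1%) of 2027 and 12.5% (10.8–14.4%) of 1414, and with such columns left out 13.4% and 12.0%. The ratio of median UMIs to reference cells was smaller in both cases, at 1.33 and 1.196 after summing and 1.39 and 1.22 after leaving out. The share followed depth on both days, from 6.84% and 6.61% of cells under 2000 UMIs to 15.8% and 15.7% of cells with 4000 to under 8000 UMIs. With 8000 or more UMIs it was 17.8% on day 4 and 14.4% on day 7. The share of mitochondrial UMIs, a sign of cell damage, had a median of 1.21% in mitotic and 1.19% in reference cells on day 4, and of 1.19% and 1.42% on day 7.

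The values that chose the cells spread widely. The 8 genes summed to 4 to 165 UMIs per mitotic cell on day 4 and to 4 to 194 on day 7, with a median of 13 on both days, and per 10000 UMIs the median was 37.9 on day 4 and 32.1 on day 7. The median cell held transcripts of 6 of the 8 genes, and 85 cells of day 4 and 53 of day 7 held all 8. Hmmr, which encodes a spindle-associated hyaluronan receptor, was detected in the most cells, 86.3% and 85.0%, and Plk1, the Polo-like kinase, in the fewest, 52.1% and 48.6%. Cenpf, an outer kinetochore protein, was at 542 CPM (counts per 1000000 summed UMIs of the group) on day 4 and at 373 CPM on day 7. Ube2c was at 613 and 675 CPM and Cdc20 at 472 and 477 CPM. Ccnb1, which encodes cyclin B1, was at 253 and 234 CPM. The proliferation genes Mki67 and Top2a were both without a UMI in 48 mitotic cells of day 4 (13.7%) and in 33 of day 7 (13.4%). Just inside the threshold lay 26 cells of day 4 and 19 of day 7 with a sum of exactly 4, and 15 and 14 cells with 10 to under 12 per 10000. Just outside lay 28 and 19 cells with a sum of 3 that exceeded 10 per 10000, and 20 and 13 cells with 4 or more UMIs at 8 to under 10 per 10000.

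Genes of mitosis that the selection did not use were also higher in mitotic cells. Reference cells had to lack the 8 genes, Mki67 and Top2a, so related genes could hardly come out otherwise. These values therefore do not test the label, and they do not separate late G2 from mitosis. The 75 genes of mitosis outside the 8 had a median log2 ratio of mitotic over reference cells (from CPM plus 1) of 4.86 on day 4 and 4.85 on day 7, and 71 of the 75 were at least 2-fold higher on both days. The 4 exceptions were Numa1, Zw10, Pttg1 and Rhoa. Of all 10822 genes with at least 20 UMIs on both days, 4.3% were at least 2-fold higher on both days and 0.887% at least 2-fold lower. On day 4 alone 5.64% of 11250 genes were 2-fold higher and 3.33% lower, and on day 7 5.56% and 4.7% of 11180. The median over all genes was 0.00 on day 4 and -0.02 on day 7. With barcode sets summed the median of the 75 genes was 4.95 and 4.94, and with such columns left out 5.03 and 5.00. Across 3733 genes outside the rule with at least 50 CPM on day 4 in either group, the log2 ratios of the 2 days had a Pearson correlation of 0.958. Across all 10812 genes outside the rule it was 0.812. Both include the mitosis and replication genes and describe genes that are not independent.

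**Figure D2:**
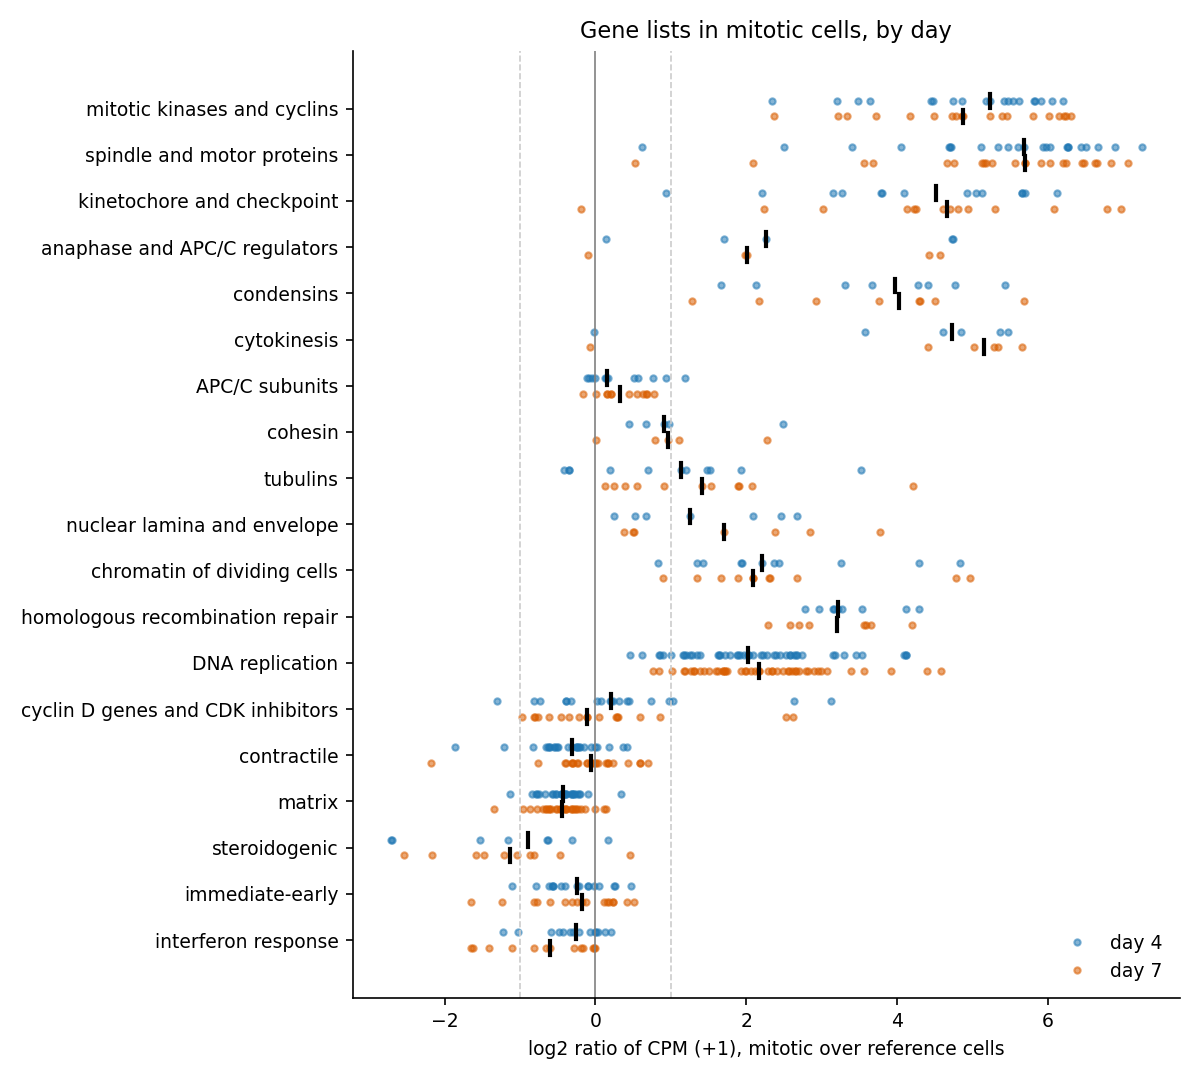
Each point is 1 gene and shows its log2 ratio of CPM (plus 1) in mitotic over reference cells (x axis) for the list named on the y axis, on day 4 (blue) and day 7 (orange). Black bars are medians, and dashed lines mark a 2-fold difference. The lists of mitosis lie mostly beyond 2-fold, with median log2 ratios between 2.01 and 5.69, while the APC/C subunits, the contractile genes and the matrix genes lie around or below 0.

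All 19 mitotic kinases and cyclins were at least 2-fold higher in mitotic cells on both days, with medians of 5.23 and 4.87 on the log2 scale. Cdk1, the kinase that triggers mitosis, was at 515 CPM in mitotic and 18.4 CPM in reference cells on day 4, and at 576 and 18.8 CPM on day 7. Its partner cyclin A2 (Ccna2) was at 194 against 1.94 CPM on day 4, a 99.7-fold ratio (59.7–180), and at 252 against 2.40 CPM on day 7 (105-fold, 63.7–185). Aurka, the Aurora kinase of the spindle poles, was at 83.5 against 0.907 CPM and at 114 against 0.451 CPM. The chromosomal passenger complex, which corrects wrong attachments, was represented by Aurkb with log2 ratios of 5.18 and 4.77, by its scaffold Incenp with 4.47 and 4.17, by survivin (Birc5) with 5.82 and 6.24 and by borealin (Cdca8) with 6.20 and 6.15. The smallest ratio of the list belonged to Cks1b, a small Cdk-binding protein, at 647 against 127 CPM on day 4 (a log2 ratio of 2.34) and 2.37 on day 7. The inhibitory kinase Pkmyt1 and the activating phosphatases Cdc25b and Cdc25c, which act on Cdk1 in opposite ways, were all higher, with day 4 log2 ratios of 3.21, 3.64 and 5.61.

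Among 23 spindle and motor genes, 22 were at least 2-fold higher on both days, with medians of 5.68 and 5.69. Kif23, a kinesin of the central spindle on chromosome 9 (61915905 to 61946774 on GRCm38, minus strand, protein-coding), had the largest ratio under the naming rule. It was at 486 CPM in mitotic and 2.20 CPM in reference cells on day 4 (220.5-fold, 137–380) and at 414 and 2.10 CPM on day 7 (197-fold, 117–363). Prc1, which bundles the antiparallel microtubules that Kif23 works on, was at 767 against 8.94 CPM (85.7-fold, 67.3–111) and 802 against 11.3 CPM (71.2-fold, 56.3–91.1). Nusap1, Ckap2l, Kif11 and Dlgap5, which bind or move spindle microtubules, were also among the 10 highest, as were Nuf2, Cdca8 and Ccna2. Cep55, an abscission protein, was among them too. It had 3 UMIs in reference cells of day 4 and 2 in those of day 7, so that its ratios carried wide counting intervals (109–1569 and 135–4091). Tpx2, which activates Aurka on spindle microtubules, was at 661 against 13.9 CPM on day 4 and 629 against 17.1 CPM on day 7. The exception of the list was Numa1, a pole protein that also lies in the interphase nucleus, at 29.0 against 18.5 CPM on day 4 (a log2 ratio of 0.62) and 0.52 on day 7.

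Of 14 kinetochore and checkpoint genes, 13 were at least 2-fold higher on both days, with medians of 4.51 and 4.65. The Ndc80 complex, which grips microtubules, was higher in all 4 subunits: Nuf2 had log2 ratios of 6.12 and 6.78, Ndc80 5.69 and 6.97, Spc25 5.13 and 4.71, and Spc24 4.09 and 4.60. The checkpoint protein Mad2l1 was at 3.804 and 4.13 and the kinase Bub1 at 5.82 and 6.02. Hjurp, the chaperone of the centromeric histone Cenpa, was at 184 against 38.9 CPM on day 4, a smaller log2 ratio of 2.21. Zw10, which also acts in membrane traffic outside mitosis, was the exception, with 0.94 on day 4 and -0.19 on day 7.

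Genes of anaphase and of APC/C regulation mostly differed from those of the APC/C subunits. Of 5 anaphase and APC/C regulator genes, 4 were at least 2-fold higher on both days. Among them were the separase gene Espl1 (log2 ratios of 4.74 and 4.42) and the APC/C inhibitor Fbxo5, known as Emi1 (4.72 and 4.57). The APC/C coactivator Fzr1 (1.71 and 1.98) was another. Pttg1, which encodes securin, the inhibitor of separase, was the exception at 149 against 135 CPM on day 4 and 119 against 127 CPM on day 7. Of the 12 core subunits, 1 was at least 2-fold higher on day 4 (Cdc23, 38.9 against 16.6 CPM) and none on day 7, and the medians were 0.16 and 0.33. The largest day 7 value among them was 0.78, for Cdc27.

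Condensins and cohesin also differed. All 8 condensin genes were at least 2-fold higher on both days, with medians of 3.97 and 4.03, and the ATPase subunits Smc2 and Smc4, shared by both condensins, had day 4 log2 ratios of 4.77 and 3.30. The subunits that only condensin I has (Ncapd2, Ncapg and Ncaph) lay between 4.28 and 5.69 over both days, above those of condensin II (Ncapd3, Ncapg2 and Ncaph2), which lay between 1.28 and 3.76. Of the 5 cohesin genes, whose ring holds sister chromatids from S phase on, 1 was at least 2-fold higher on day 4 and 2 on day 7. Rad21, the subunit that separase cleaves, was at 396 against 70.0 CPM on day 4 (2.48) and 375 against 76.9 CPM on day 7 (2.27), whereas the ATPase subunits Smc1a and Smc3 lay between 0.67 and 1.11. The cytokinesis genes Anln, Ect2, Racgap1, Cit and Arhgap11a were higher on both days by log2 ratios of 3.58 to 5.65. Their downstream GTPase Rhoa, used by all cells, was at 386 against 389.8 CPM and at 367 against 388 CPM.

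Regulators and structural genes that cells also use outside mitosis had intermediate values. Of 13 tested transcription regulators of the cycle, 6 were at least 2-fold higher on both days, among them Foxm1, an activator of G2/M genes (3.22 and 3.93), the repressors E2f7 (3.02 and 3.88) and E2f8 (3.90 and 3.61), and Lin9 of the MuvB complex that binds CHR elements (2.96 and 2.35). The G0 pocket protein Rbl2 was at 16.1 against 8.56 CPM on day 4 and at 15.3 in both groups on day 7. Tubulins and their regulator were graded, with medians of 1.132 and 1.42 over 11 genes, several of which are close copies whose reads may be split between them. Stmn1, which destabilises microtubules, was at 3.52 and 4.21, Tubb4b at 1.93 and 1.91 and Tuba1b at 1.52 and 1.89. Tubb3 was at -0.41 on day 4 and 0.13 on day 7. Lamin B1 (Lmnb1), lamin B2 (Lmnb2), Lbr and Tmpo of the nuclear envelope were at least 2-fold higher on both days, with Lmnb1 at 2.67 and 3.77, and lamin A (Lmna) was at 0.52 and 0.51.

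Genes of DNA replication were higher too, by less than those of mitosis. Of 47 tested, 42 were at least 2-fold higher on day 4 and 45 on day 7, beside 5.64% and 5.56% of all genes. The medians were 2.03 and 2.16. Reference cells had to lack the 8 genes, Mki67 and Top2a, which favours higher values of cell cycle genes in mitotic cells. The list summed to 3142 CPM in mitotic and 801 CPM in reference cells on day 4. On day 7 it summed to 3699 and 841 CPM. Among its highest members were the nucleotide genes Tk1 (4.12 and 4.58) and Rrm2 (4.09 and 4.39), Clspn of the replication checkpoint (4.12 and 3.92) and Gmnn, the geminin gene (3.29 and 3.55), whose protein blocks relicensing in G2. The sliding clamp Pcna was at 276 against 88.5 CPM and 336 against 102 CPM, and the licensing helicase gene Mcm5 at 34.2 against 5.70 CPM and 47.2 against 6.61 CPM. Homologous recombination genes were all at least 2-fold higher among those tested, 9 of 9 on day 4 and 8 of 8 on day 7. Of 11 chromatin genes, 10 were at least 2-fold higher on both days, beside 4.3% of all genes. They were led on day 4 by Hmgb2 (547 against 18.3 CPM). With barcode sets summed the replication median was 2.12 and 2.21, and with such columns left out 2.14 and 2.16. Against all other cells of the day in place of reference cells it was 1.34 and 1.40.

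Cells that met the rule differed in genes of the earlier phases. When they were divided by the summed value of the 8 genes, the G1/S cyclins stood highest in the group just above the threshold and near the reference in the top group. Ccne2, which encodes cyclin E2, was at 42.3 CPM (26.5–64.0) in cells with 10 to under 20 per 10000 on day 4, at 9.60 CPM in those with 20 to under 40 and at 3.83 CPM in those with 40 or more, beside 3.37 CPM in reference cells. On day 7 the same groups were at 90.7, 4.88 and 2.14 CPM, beside 4.06 CPM. Ccne1 went from 38.4 to 7.67 CPM on day 4 and from 63.9 to 8.54 CPM on day 7 between the first and the last of these groups. The replication list had the same order, at 4029, 3178 and 2522 CPM on day 4 and 4893, 3295 and 2993 CPM on day 7. Mitosis genes that took no part in the rule had the opposite order. The groups were cut on the 8 selecting genes, so genes related to these could hardly come out otherwise. Their order is a description and not a test. Aurka was at 28.8, 68.8 and 132 CPM on day 4 and at 37.1, 116 and 190.0 CPM on day 7. Kif23 was at 234, 416 and 709 CPM on day 4, and the spindle list at 2613, 4350 and 7354 CPM. The 3 groups held 77, 115 and 159 cells on day 4 and 63, 99 and 85 on day 7, and their median UMIs fell from 5337 to 2876 and from 5684 to 3370, and the part of depth in this order was not tested.

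**Figure D3:**
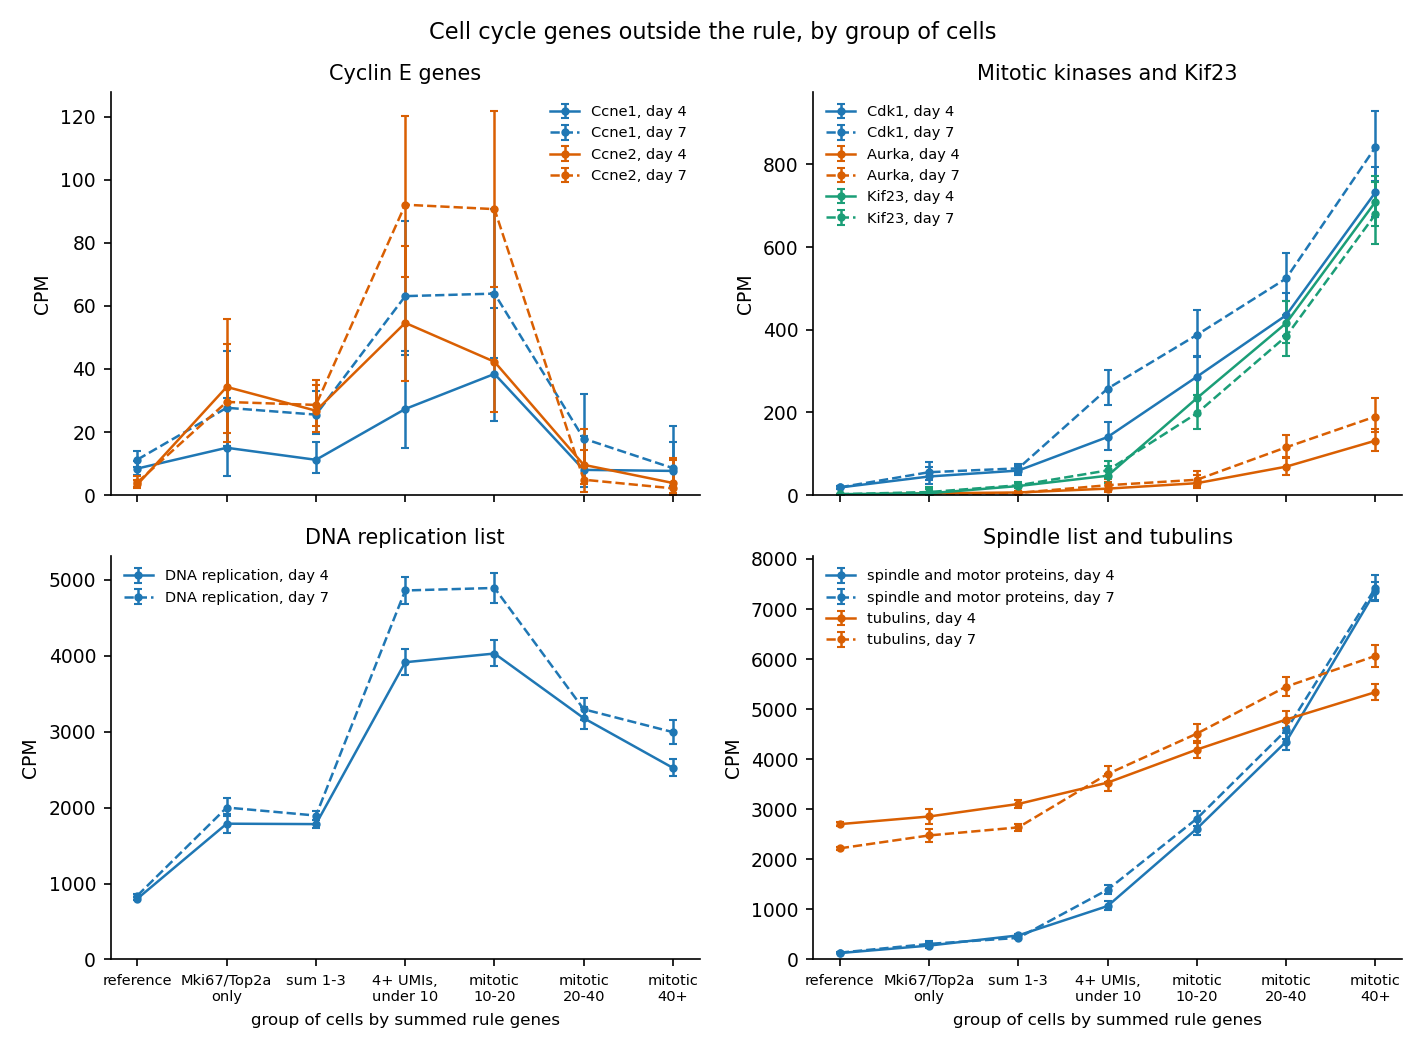
CPM (y axes, summed UMIs of each group of cells, bars are 95% Poisson intervals) of genes outside the rule in 7 groups of cells (x axis) from reference cells to mitotic cells with 40 or more UMIs of the 8 genes per 10000, on day 4 (solid) and day 7 (dashed). Ccne1, Ccne2 and the DNA replication list are highest around the threshold, while Cdk1, Aurka, Kif23 and the spindle list rise to the last group, where Kif23 reaches 709 CPM on day 4. The groups are cut on the 8 selecting genes, so the rise of related genes is a description and not a test.

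Cells outside the rule were also above the reference in both lists. Cells with at least 4 UMIs of the 8 genes but under 10 per 10000 (48 on day 4, 46 on day 7, with median UMIs of 9728 and 11610.5) held 3914 and 4860 CPM of replication genes, the level of the lowest mitotic group, but 1067 and 1393 CPM of spindle genes, below it. Cells with Mki67 or Top2a and none of the 8 genes (91 and 89) held 1788 and 2001 CPM of replication genes and 277 and 310 CPM of spindle genes. Cells with a sum of 1 to 3 UMIs (405 and 324) held 1782 and 1895 CPM of replication genes and 480.1 and 431 CPM of spindle genes. Ccne2 at 34.3 and 29.5 CPM in cells with Mki67 or Top2a alone was above the reference on both days.

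Cyclin D genes and inhibitors of the cycle did not move together. The median over the list was 0.20 on day 4 (19 genes) and -0.11 on day 7 (18 genes). Cdkn2c (p18) and Cdkn2d (p19), inhibitors of Cdk4 and Cdk6, were the 2 members at least 2-fold higher on both days, with log2 ratios of 2.64 and 2.63 and of 3.12 and 2.53. Cdkn1b (p27) was at 67.4 against 39.9 CPM and 76.5 against 41.8 CPM, below 2-fold. Ccnd1, the cyclin that growth factors induce in G1, was at 202 against 200 CPM on day 4 and 314 against 304 CPM on day 7. Ccnd2 was lower in mitotic cells, at 337 against 559 CPM and 600 against 1046 CPM. Cdkn1a, which encodes p21, the inhibitor induced by p53, had a different sign on the 2 days, at 349.5 against 280.0 CPM (0.32) on day 4 and 373 against 571 CPM (-0.61) on day 7.

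None of 25 contractile genes was 2-fold higher on either day and 2 were 2-fold lower on day 4 and 1 on day 7, beside 3.33% and 4.7% of all genes, with medians of -0.31 and -0.06. With barcode sets summed the medians were -0.34 and -0.07, and with such columns left out -0.33 and -0.02. Acta2, which encodes smooth muscle actin, was at 2249 CPM (2182–2316) in mitotic and 3469 CPM (3427–3510) in reference cells on day 4, and at 2796 and 2906 CPM on day 7. With every cell thinned to 1500 UMIs, which left out 43 mitotic and 605 reference cells of day 4 and 21 and 348 of day 7, an Acta2 UMI was present in 84.4% of mitotic and 84.3% of reference cells on day 4 and in 85.4% and 74.1% on day 7. Unthinned these shares were 92.02%, 87.6%, 91.9% and 78.9%. For comparison, the reference cells of day 14, the last day of the culture, had an Acta2 UMI in 5.88% when thinned (9.11% unthinned). They come from another library, so this share does not measure the background of the day 4 and day 7 libraries. Myh11, the smooth muscle myosin, was the member 2-fold lower on both days, at 8.82 against 34.7 CPM and 3.19 against 18.0 CPM. The day 7 contractile median changed sign under 3 alternatives, within -0.07 to 0.02.

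Matrix genes were lower in mitotic cells almost without exception. Of 30 genes, 29 were below 0 on day 4 and 28 on day 7, with medians of -0.43 and -0.44. A single gene passed 2-fold on each day, beside 3.33% and 4.7% of all genes that were 2-fold lower. These were Clu on day 4 (42.5 against 94.6 CPM) and Mgp, which encodes matrix Gla protein, on day 7 (397 against 1008 CPM). Postn, which encodes periostin, was the member above 0 on both days, by 0.34 and 0.14. Col1a1, the main fibrillar collagen chain, was at 621 against 840 CPM and 897 against 1227 CPM, and after thinning a UMI of it was present in 53.6% of mitotic and 65.9% of reference cells on day 4 and in 69.9% and 78.7% on day 7. The matrix median stayed between -0.49 and -0.38 under all alternatives, and was -0.45 and -0.44 with barcode sets summed and -0.38 and -0.48 with such columns left out. CPM are shares of the UMIs of a group, and the 75 mitosis genes alone took 14219 CPM of mitotic against 1172 CPM of reference cells on day 4. The median log2 ratio over all genes was 0.00 on day 4 and -0.02 on day 7. The part of these shares in the matrix values was not tested.

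Progenitor and stromal genes were near the reference. Over 13 genes tested on day 4 and 12 on day 7 the medians were 0.08 and 0.16, beside 0.00 and -0.02 over all genes. Tcf21, the transcription factor that names the progenitor population, was at 37.9 against 28.8 CPM and 29.97 against 19.2 CPM. Pdgfra, the receptor for the PdgfAA of the medium, was at 169.6 against 94.0 CPM on day 4 and 79.1 against 62.0 CPM on day 7, and Thy1 was the member at least 2-fold higher on day 7 (54.2 against 25.2 CPM). Nt5e, which encodes the mesenchymal marker CD73, was the member 2-fold lower on day 4, at 1.04 against 3.50 CPM, from 2 mitotic UMIs. Ly6a, which encodes the sort marker Sca1, was at 466 against 525 CPM on day 4 and 50.4 against 68.9 CPM on day 7.

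Most steroidogenic genes tested were lower in mitotic cells, and some of the 13 listed held too few UMIs to test. Of 8 genes tested on day 4, 4 were at least 2-fold lower, and of 10 on day 7, 6 were. Of all genes, 3.33% and 4.7% were 2-fold lower on these days. None of the list was 2-fold higher on either day. The medians were -0.90 and -1.13, and 4 genes were 2-fold lower on both days, beside 0.887% of all genes. On each day 1 gene was above 0, Nr5a1 on day 4 (0.17) and Scarb1 on day 7 (0.46). Star, which delivers cholesterol into mitochondria (chromosome 8, 25806555 to 25815982, plus strand, protein-coding), was at 99.0 against 222 CPM on day 4, a ratio of 0.446 (0.382–0.518), and at 152 against 425 CPM on day 7, a ratio of 0.359 (0.313–0.410). After thinning, a Star UMI was present in 11.04% of mitotic and 20.2% of reference cells on day 4 and in 16.8% and 32.8% on day 7. Cyp11a1, which makes pregnenolone, was at 2.07 against 19.2 CPM and 16.6 against 77.7 CPM. The 10 lowest genes by the naming rule were Star, Tmem150a, Ypel3, Meg3, Gpx3, Ptgs2, Il11ra1, Lmcd1, Ndrg4 and Crispld2. Tmem150a, a membrane protein, had the lowest day 4 ratio of these, 0.255 (0.171–0.366), and was at 45.3 against 120.3 CPM on day 7. Gpx3, a secreted glutathione peroxidase, was at 16.6 against 56.0 CPM and 52.9 against 119 CPM. Il11ra1, the receptor chain for interleukin 11, was at 225 against 464 CPM and 107 against 237 CPM.

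Nuclear noncoding RNAs were lower in mitotic cells, with medians of -0.58 on day 4 and -1.31 on day 7 over 4 genes. Malat1, which is retained in nuclear speckles, was at 4251 against 5719 CPM on day 4 and 3672 against 7557 CPM on day 7. Neat1, the scaffold of paraspeckles, was at 33.2 against 55.5 CPM and 34.4 against 126 CPM, and Meg3, an imprinted RNA, at 73.1 against 169 CPM and 82.9 against 249.9 CPM. Kcnq1ot1 was below 2-fold on both days, at -0.23 and -0.25.

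Targets of the pathways that the media act on had medians between -0.80 and 0.12. Immediate-early genes are induced by growth factors within minutes, and their level also responds to dissociation. Of 17, none was 2-fold higher on either day, beside 5.64% and 5.56% of all genes, which does not set the list apart. On day 4 1 was 2-fold lower and on day 7 2 were, beside 3.33% and 4.7% of all genes. The medians were -0.24 and -0.18 (-0.25 and -0.15 with barcode sets summed, -0.48 and -0.27 with such columns left out). Dusp1 was the member 2-fold lower on both days, at 27.0 against 59.2 CPM and 6.38 against 22.2 CPM. The FGF/ERK feedback genes had medians of 0.12 and 0.10 over 8 genes with none past 2-fold. Hedgehog targets had medians of -0.37 and -0.36 over 4 genes, with Hhip, a feedback inhibitor, as the member above 0 (1.06 and 0.97) and Gli1 at 8.82 against 14.4 CPM and 5.74 against 7.36 CPM. Notch receptors and targets had medians of 0.00 and -0.19 over 5 genes, with Notch1 at 0.53 and 1.39 and Heyl at -0.19 and -1.33, and Wnt targets of -0.55 over 5 genes and -0.80 over 3. The 78 ribosomal protein genes had medians of -0.07 and -0.04, with none past 2-fold. Mitochondrially encoded genes had medians of -0.06 over 15 genes and -0.39 over 14, with 2 members 2-fold lower on day 7.

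Markers of other cell types differed by list in mitotic cells. Macrophage markers summed to 3.63 CPM on day 4, with C1qa, C1qb, Adgre1, Tyrobp and Fcer1g at 0, and to 86.7 CPM on day 7, where 126 of 136 UMIs lay in 1 column. Reference cells held 16.9 and 18.9 CPM. Endothelial markers summed to 102 and 112 CPM against 92.4 and 128 CPM, most of it Cdh5, with Vwf, Tie1 and Cldn5 at 0 in mitotic cells. Of 5 endothelial genes tested on day 4, 3 were above 0 and 1 was 2-fold higher, Pecam1 (a log2 ratio of 1.43). Of 3 tested on day 7, none was above 0. Sertoli markers summed to 738 and 881 CPM against 1062 and 1312 CPM, carried by Ctsl, with Amh at 0 in all groups. Germ cell markers fell from 104 CPM on day 4 to 21.7 CPM on day 7, against 154 and 18.6 CPM, carried by the protamine genes Prm1 and Prm2 and by Tnp1, with Ddx4, Dazl and Stra8 at 0. Of the blood markers, Hbb-bs and Cd3e were at 0 in all groups and Ptprc at 0 in mitotic cells of day 4 and at 2.55 CPM on day 7.

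**Figure D4:**
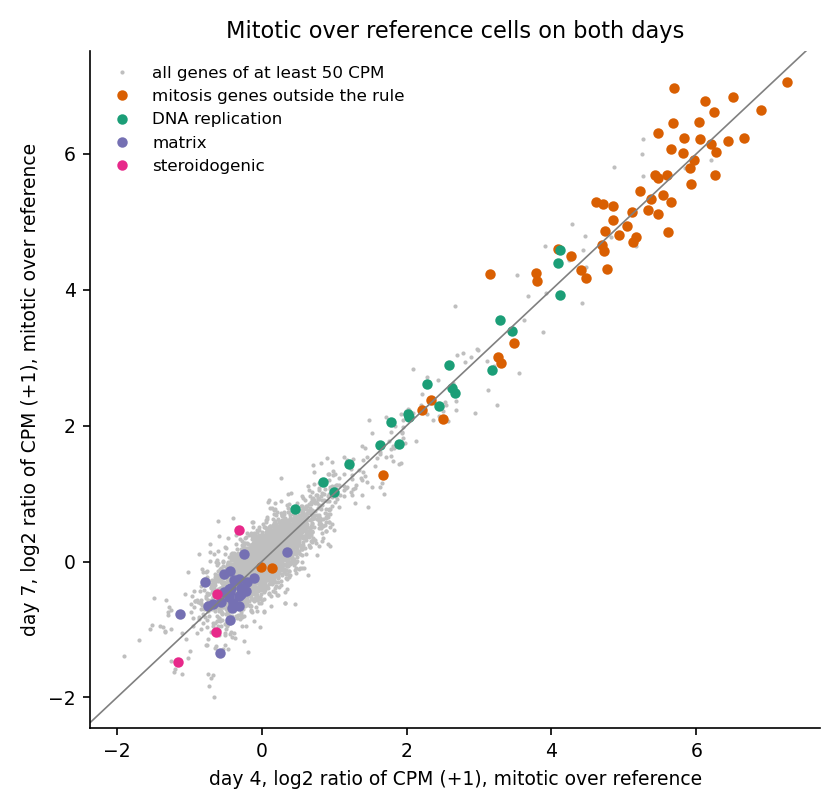
Log2 ratio of CPM (plus 1) in mitotic over reference cells on day 4 (x axis) and day 7 (y axis), for genes of at least 50 CPM outside the rule (grey points) and 4 gene lists (coloured), with the line of equal values. The lists keep their order on both days, mitosis genes near 5, replication genes near 2, and matrix and steroidogenic genes mostly below 0. The correlation across the 3733 genes with at least 50 CPM on day 4 in either group is 0.958, and 0.812 across all 10812 genes outside the rule.

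Mitosis genes outside the rule differed by less than 2-fold between the mitotic cells of the days. From day 4 to day 7 in mitotic cells, 3.26% of 9445 genes were at least 2-fold higher and 3.22% at least 2-fold lower (3.17% and 3% of 11967 in reference cells), with a median of 0.05 over all genes. None of the 75 mitosis genes outside the rule passed 2-fold, with a median of 0.04 and a range from -0.74 (Zw10) to 0.72 (Fzr1), and they summed to 14219 CPM on day 4 and 14116 CPM on day 7. Replication genes had a median of 0.27, with 40 of 47 above 0 and 1 past 2-fold, the primase subunit gene Prim2 (2.29-fold, 1.43–3.73). The same list had a median of 0.17 in reference cells. Rrm2 went from 108 to 190.0 CPM and the cyclin E gene Ccne2 from 16.1 to 30.6 CPM in mitotic cells.

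Interferon response genes were lower on day 7 in both mitotic and reference cells. Of 13 interferon response genes, 12 were at least 2-fold lower on day 7 in mitotic cells, with a median of -2.94, and 11 of 14 in reference cells, with a median of -2.56. Isg15, a ubiquitin-like interferon product (chromosome 4, 156199424 to 156200818, minus strand), was lowest, going from 101 to 3.83 CPM (a ratio of 0.0378, 0.0137–0.0839) in mitotic cells and from 136 to 7.51 CPM in reference cells. Phf11d, Xaf1 and Ifi27l2a, also interferon-inducible, and Ly6a were the other 4 of the 5 lowest, and Phf11d and Ifi27l2a have close paralogs with which reads may be shared. Ly6a, on chromosome 15 (74994877 to 74998031, minus strand), fell to a ratio of 0.108 (0.0847–0.136) in mitotic and 0.131 (0.119–0.145) in reference cells. The 5 highest were Clu, Rn18s-rs5, Itgbl1, Ltbp2 and Mgll. Clu, which encodes the chaperone clusterin (chromosome 14, 65968483 to 65981547, plus strand), went from 42.5 to 315 CPM in mitotic cells (7.41-fold, 5.85–9.48) and from 94.6 to 538 CPM in reference cells (5.69-fold, 5.25–6.17), and its log2 ratio in mitotic cells was 2.86, or 2.49 with shared barcode columns left out. Itgbl1 and Ltbp2, extracellular proteins, rose 4.15-fold and 4.11-fold in mitotic cells against 2.82-fold and 2.70-fold in reference cells. Rn18s-rs5 is a copy of ribosomal RNA sequence, for which reads of near-identical copies cannot be told apart.

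The matrix list had a median of 0.31 from day 4 to day 7 in mitotic and 0.33 in reference cells, with Lox, the collagen crosslinking enzyme, at 818 and 1646 CPM and Postn at 163 and 479 CPM on days 4 and 7 in mitotic cells. With barcode sets summed the median in mitotic cells was 0.36, and with such columns left out 0.29. The contractile median was -0.20 in mitotic and -0.46 in reference cells (-0.18 and -0.23 in mitotic cells with barcode sets summed and left out). Above 0 were 7 of 24 contractile genes in mitotic and 1 of 25 in reference cells. Cnn1, which encodes calponin, was the member 2-fold higher on day 7 in mitotic cells, at 10.4 and 31.9 CPM (3.07-fold, 1.80–5.45), and was at 25.4 and 23.4 CPM in reference cells. Acta2 was 1.24 times its day 4 level (1.19–1.30) in mitotic cells and 0.838 times (0.822–0.853) in reference cells. Star was higher on day 7 in both groups, 1.54 times (1.27–1.87) in mitotic and 1.91 times (1.80–2.03) in reference cells.

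**Figure D5:**
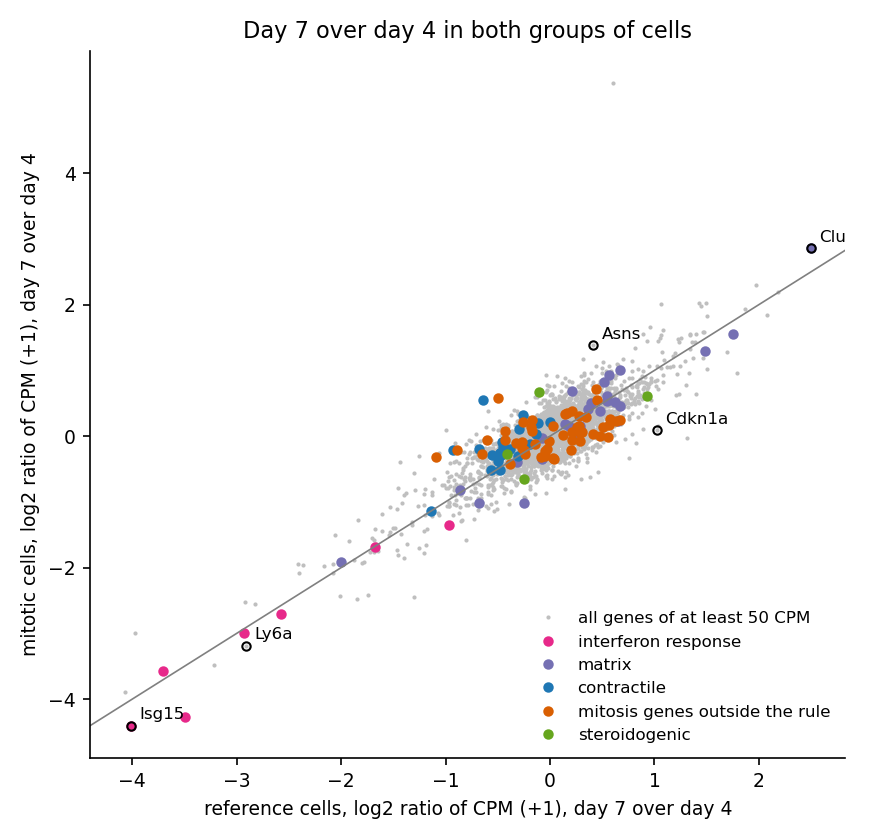
Log2 ratio of CPM (plus 1) of day 7 over day 4 in reference cells (x axis) and in mitotic cells (y axis), for genes of at least 50 CPM in mitotic cells on either day (grey) and 5 gene lists (coloured), with 5 genes ringed and the line of equal values. Interferon response genes lie far below 0 in both groups. Mitosis genes lie near 0 in mitotic cells, which met the same cutoff on related genes on both days. Cdkn1a lies below the line, at a ratio of 1.07 in mitotic and 2.04 in reference cells, and Asns above it.

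A few genes changed between days by different amounts in the 2 groups of cells. They were chosen after their values were seen, as the 5 largest differences in each direction among 2162 genes, and have no replicate check. Cdkn1a (chromosome 17, 29090976 to 29100727, plus strand) went from 280.0 to 571 CPM in reference cells (2.04-fold, 1.93–2.15) and from 349.5 to 373 CPM in mitotic cells (1.07-fold, 0.954–1.19). Hist1h2bc, a histone H2B gene of a family of near-identical copies, went from 189.5 to 471 CPM in reference cells and stood at 119 and 117 CPM in mitotic cells. Gas6, a secreted ligand of the TAM receptors, went from 380.1 to 524 CPM in reference cells and from 238 to 163 CPM in mitotic cells. H2afx, the histone variant that marks DNA breaks when phosphorylated, was at 209 and 132 CPM in mitotic and at 21.0 and 26.0 CPM in reference cells. Mgp was at 1194 and 1008 CPM in reference and at 800 and 397 CPM in mitotic cells. In the other direction Asns, which encodes asparagine synthetase, went from 66.9 to 176 CPM in mitotic cells (2.63-fold, 2.13–3.27) and from 102 to 136 CPM in reference cells (1.34-fold, 1.21–1.47). Fabp5, a fatty acid binding protein gene, was at 219.9 and 166 CPM in mitotic and at 289 and 106 CPM in reference cells. Csrp2, a LIM-domain protein gene, was at 97.5 and 168 CPM in mitotic cells (1.72-fold, 1.42–2.09) and at 135 and 132 CPM in reference cells. The other 2 were Prr11 and the spindle gene Knstrn, whose day 7 reference values rest on 3 and 9 UMIs.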

How the data were processed

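Transcripts of single cultured cells were measured with Drop-seq in 3 libraries, one per day (4, 7 and 14). The authors deposited raw UMI counts per gene and cell barcode, without normalization, for each day and in a merged table of the cells that passed their filter (a minimum of 500 genes, with mitochondrial UMIs no higher than 10%). The submitters' processing notes name STAR 2.5.2a, Picard 2.6.0, SAMtools 1.2 and GRCm38. The merged counts were used, and they had 0 entries that differed from the counts per day. The 495 merged columns that start with another prefix belong to no sample used here. The members, gene lists and comparisons were chosen with earlier results of these data known.

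UMIs were summed per group and day and given as CPM with exact Poisson intervals, ratios with exact conditional intervals and shares with Clopper-Pearson intervals. Log2 ratios used a pseudocount of 1 CPM and genes with at least 20 UMIs over the groups compared, and a list is described by its median and by its members past 2-fold. The genes named were list members, the 10 highest and 10 lowest (the smaller size of the log2 ratio on the 2 days, same sign, at least 50 CPM in 1 group on both days), and the 5 highest and 5 lowest from day 4 to day 7 (at least 100 CPM on either day). Thinning drew 1500 UMIs per cell with seed 1. Doublets were not removed, except in an alternative that removed the 6% of cells with the highest Scrublet scores (scanpy 1.11.5). Motifs were searched on both strands in RefSeq windows from 250 bases before to 50 after each start. Positions of genes are from the GENCODE annotation of GRCm38. The tools were scipy 1.17.1, pandas 2.3.3, numpy 2.4.6 and matplotlib 3.10.9 under Python 3.11.15, and the scripts were tested on simulated data. With 1 library per day no test was made. Some items are not reported here.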

Additional observations from a re-analysis of the deposited data

Results flagged for a closer look

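Outside the main comparison, 14 of the 973 cells of day 14 met the same rule, a share of 1.44% (interval 0.789–2.40%), where a count of 0 would allow up to 0.308%. They fell on 12 distinct sets of the first 11 barcode bases and had a median of 7925 UMIs, against 3063 in reference cells of that day. Genes outside the rule were also higher in them, with Tpx2 at 559 CPM (interval 436–706) against 1.97 CPM and Cdk1 at 351 CPM (255–472) against 4.39 CPM.

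Among all genes tested, 6 were at least 2-fold higher in mitotic than in reference cells on one day and at least 2-fold lower on the other. This difference between days was not tested. Slpi had log2 ratios of 3.44 on day 4 and -3.06 on day 7, with 46 of 46 mitotic UMIs of day 4 in 1 cell and 48 of 49 reference UMIs of day 7 in 1 cell. Lyz2, a macrophage gene, was at -2.30 and 2.47, with 94 of 97 mitotic UMIs of day 7 in 1 cell. Igfbp2 was at 1.65 and -1.31, with 43 of 49 mitotic UMIs of day 4 in 1 cell. Ly6k was at -3.46 and 1.03, with 229 of 342 reference UMIs of day 4 in 1 cell. E130309D02Rik was at 1.08 and -1.01 and Gm26596 at -1.01 and 1.132, both spread over cells but with 4 and 3 mitotic UMIs on the day of the lower value.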

How the results depend on the processing

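Of 224 alternative values of the main results, 197 stayed within their spread, 27 moved further and 0 reversed. The spread covers counting error only, and for a list it runs between the medians of the lower and upper limits of its genes. Reversal was counted only for log2 ratios of at least 2-fold. The contractile, matrix and immediate-early medians were smaller and could not be called reversed, and 3 of their values changed sign, as given below. With at least 2 UMIs and 5 per 10000, the mitotic share was 16.1% on day 4 and 15.6% on day 7 and the ratio of median UMIs on day 4 was 1.45. With at least 8 UMIs and 20 per 10000, the shares were 7.21% and 6.59% and the ratios 1.90 and 2.08. With all deposited barcodes the day 4 ratio was 1.97. With a cell filter of 800 genes and 5% mitochondrial UMIs, the day 4 share was 13.2% and the ratios were 1.42 and 1.41. Reference cells matched in UMIs brought the ratios to 0.999 and 0.999 by construction. Against all other cells, the median log2 ratio of mitosis genes was 3.93 on day 4 and 3.65 on day 7, and that of DNA replication 1.34 and 1.40. With a pseudocount of 10 CPM these were 3.18, 3.23, 1.40 and 1.49. In 2 alternatives chosen after seeing the data, columns with the same first 11 barcode bases were summed or left out. Summing gave a day 4 share of 13.5% and ratios of 1.33 and 1.196, and leaving out gave 13.4%, 1.39 and 1.22.

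The macrophage median of day 7, 1.27 over 3 genes, reversed to -1.94 with at least 8 UMIs and 20 per 10000, to -1.12 with columns summed and to -0.39 with columns left out, and 126 of its 136 mitotic UMIs lay in 1 column. Of 188 alternative values of the main list medians, 3 had the opposite sign, all of them the day 7 contractile median, which stayed between -0.07 and 0.02. Among the other lists, the interferon median of day 7 went from -0.60 to 0.11 against matched reference cells, the germ cell median of day 4 from -0.51 to 0.04 with the stricter cell filter, and the Wnt median from day 4 to day 7 from 0.90 (1 gene) to -0.74 with no minimum of UMIs. The cause of these moves was not tested. Of the other values, 2038 stayed within their spread and 145 moved. No paired analysis was possible because each day is 1 library and no test was made. Depth is a limit, since genes at a few CPM in mitotic cells rest on under 10 UMIs.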
